A study of Prunus persica with 9 samples.

Results

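The miR7122 family of peach was followed through its 2 listed genes, miR7122a (ENSRNA049995989) and miR7122b (ENSRNA049995981), which were taken by their identifiers from the 210 pre_miRNA genes of the miRNA-Seq table. The libraries came from leaves of juvenile plants of Prunus persica var. Big Top, grown in vitro and then in pots. PpPep2, a peach plant elicitor peptide that plants perceive as a danger signal, was sprayed onto both leaf surfaces at 1 μM. There were 3 control libraries (t0, described as mock in the labels and as untreated in the methods), 3 libraries from leaves taken 1 h after PpPep2 and 3 from leaves taken 24 h after it. The methods give several plants to each replicate. All control libraries were from t0, so PpPep2 cannot be told apart from elapsed time or handling in any comparison. The leaf label was not checked against marker genes, since the table holds pre_miRNA genes and no others.

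Plant miRNAs guide ARGONAUTE proteins to complementary transcripts, which are then cut or kept from translation. Some miRNAs, most often those of 22 nt, also set off the making of secondary small RNAs from the cut transcript. These secondary RNAs, called phasiRNAs, are made in a regular register by an RNA-dependent RNA polymerase and a Dicer-like enzyme and can silence further members of a gene family. In rosaceous plants miR7122 is known as such a trigger on genes of pentatricopeptide repeat (PPR) proteins, a large family of RNA-binding proteins that act in chloroplasts and mitochondria, and its superfamily has been traced back to miR390. Neither PPR transcripts nor phasiRNAs were measured in this table, so the role named here is background only.

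The mature sequences are shown because they set how well the reads of the 2 genes can be told apart. They are those listed for each arm of the hairpin by the study, read 5′ to 3′, with the seed (bases 2 to 8) in capitals.
miR7122a-5p: uUAUACAAugaaaucacggccg
miR7122b-5p: uUAUACAAugaaaucacggucg
miR7122a-3p: gCCGUGUUucuuuguauaaag
miR7122b-3p: cCGUGUUUccuuguauaaag
Both 5p sequences had 22 nt and the same seed, which was found in no other of the 39 mature sequences listed by the study. They differed at 1 position, C20U, counted from the 5′ end of miR7122a-5p, with the base of miR7122a written first. The first 19 bases were therefore shared, and a 5p read that ends before position 20 fits both genes. The 3p sequences had 21 nt in miR7122a and 20 nt in miR7122b. With the ends on the right aligned they differed at U11C, counted in miR7122a-3p, and the extra first base of miR7122a-3p moved its seed by 1 position relative to miR7122b-3p. The table gives 1 value per gene, so which arm the reads came from is unknown, and the values depend on how the quantification divided reads that fit both genes.

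Values are normalized counts, meaning reads on a gene divided by a factor for each library. In each library all 210 values were whole multiples of 1 step to within 0.0102 of a read, so the step was taken as the worth of 1 read. The reads are thus inferred, and each library had fewer low values than the 100 set as needed to enter them in a count test, so no count test was run and the intervals below hold only if the step is 1 read. By this measure the libraries held between 115519 reads (control replicate 2) and 546709 reads (control replicate 3) on pre_miRNA genes. Behind miR7122a there were 852 to 6170 reads a library, and behind miR7122b there were 42 to 352. The fewest reads of both genes were in control replicate 2. Intervals quoted from these reads cover counting error only, with each read taken as independent. They leave out any error in how reads that fit both genes were divided between them. PCR can copy 1 molecule into several reads, so the intervals may be too narrow even for counting error.

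Both genes were higher after PpPep2 than in the control, in every library of both time points. Of the 135 genes tested below, 8.89% had all 1 h libraries above all control libraries, and 20% had all 24 h libraries above them. The share that did both was not counted. The abundant copy, miR7122a, and the rare one, miR7122b, stayed between 15.6 and 23.2 to 1 in abundance, with the lower ratios in the PpPep2 libraries. By their means both genes were further above the control at 24 h than at 1 h, although the time points overlapped. In bulk leaf, a change in the cells sampled and a change in RNA per cell cannot be told apart. One library, replicate 1 of 1 h, stood between the control and the remaining PpPep2 libraries for both genes.

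The normalized counts of miR7122a were 2517, 2423 and 2577 in the t0 libraries, 3167, 5646 and 6205 at 1 h and 6968, 5355 and 7763 at 24 h, each for replicates 1, 2 and 3. The 3 control values lay close together, whereas replicate 1 of 1 h was much nearer to the control than replicates 2 and 3. No PpPep2 library overlapped the control, and the 1 h and 24 h libraries overlapped each other. Of all genes tested, 8.89% were likewise above the control in all 1 h libraries and 20% in all 24 h libraries. With 3 libraries a group, the mean and SD of miR7122a came to 2506 ± 77.5 for the control, 5006 ± 1617 for 1 h and 6695 ± 1227 for 24 h.

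The normalized counts of miR7122b were 115.1, 119.5 and 111.3 in the t0 libraries, 177.8, 328.5 and 398.1 at 1 h and 346.0, 313.8 and 442.9 at 24 h, in the same order of replicates. Again replicate 1 was the low one at 1 h, every PpPep2 library was above every control library, and the time points overlapped. The shares of all genes tested that lay above the control in this way were those given for miR7122a, 8.89% and 20%. The mean and SD of its 3 libraries came to 115 ± 4.08 for the control, 301 ± 113 for 1 h and 368 ± 67.2 for 24 h.

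**Figure D1:**
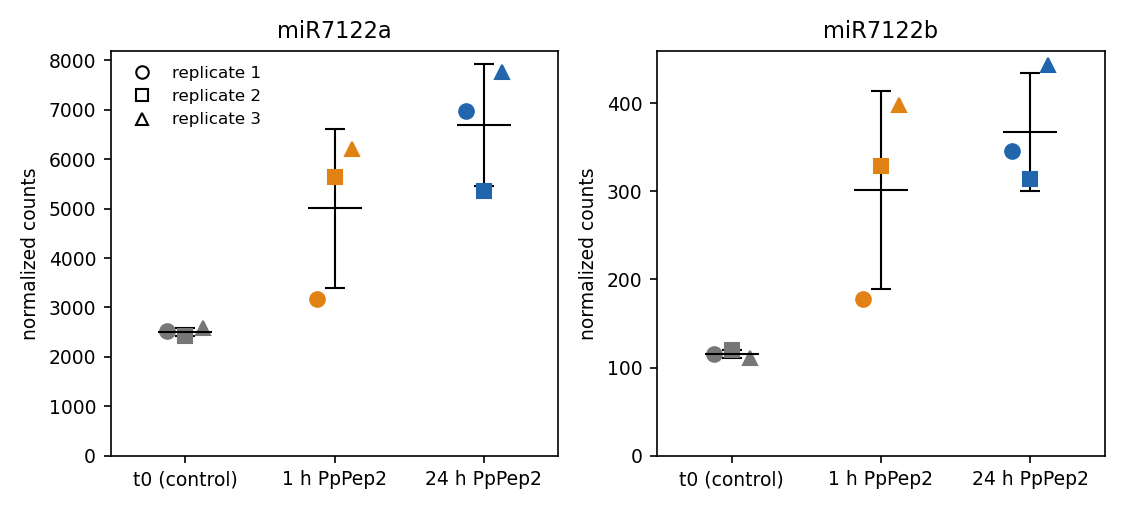
Normalized counts of miR7122a (left) and miR7122b (right) in the 9 libraries, with a symbol per replicate, the mean as a horizontal line and the standard deviation (n = 3) as error bars. The control libraries sit tightly at 2423 to 2577 for miR7122a and 111.3 to 119.5 for miR7122b, under all PpPep2 libraries, and replicate 1 of 1 h is the lowest PpPep2 library in both panels.

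The 3 control values of miR7122b spread by less than their estimated counting error, a difference that was not tested. Their coefficient of variation was 3.54%, while the 42 to 228 reads behind them carry a counting error of 10.6%. In control replicate 2 the value of 119.5 had an exact Poisson 95% interval of 86.1 to 161.5 normalized counts. For miR7122a at t0 the coefficient of variation of 3.09% was close to its counting error of 2.32%. After PpPep2 the spread between replicates was far above counting error. For miR7122b it was 37.3% against 6.55% at 1 h and 18.3% against 7.28% at 24 h, and for miR7122a it was 32.3% against 1.60% at 1 h and 18.3% against 1.72% at 24 h.

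Changes were tested with limma on log2(normalized count + 1), in 1 fit to the 9 libraries, restricted to 135 genes whose mean over the libraries reached 5 normalized counts. The added 1 shrinks fold changes where counts are low, and the log2 fold changes of the pair moved by little when 0.5 or 5 was added instead. At 24 h against t0, miR7122a had a log2 fold change of 1.40 (standard error 0.26) and miR7122b one of 1.65 (standard error 0.30). Adjusted by Benjamini-Hochberg over all 135 genes, the limma p was 0.0144 for each, and both were higher in 3 of 3 libraries. In that comparison 5.19% of the genes tested were called higher, 7 of 135, 32.6% had an unadjusted p under 0.05 and 20% had all 24 h libraries above all control libraries. Ordered from the most positive log2 fold change down, miR7122b was 5th and miR7122a 6th of the 135 genes, and by absolute change, falls included, they were 19th and 23rd. Scaling to a common total or a common upper quartile moved the median change over the genes tested to -0.30 and 0.38 on the log2 scale, in place of -0.01. The minimum mean was applied again after scaling, which left 137 genes tested under the common upper quartile. Under these scalings the log2 fold change of miR7122a was 1.11 and 1.80 and that of miR7122b was 1.36 and 2.05, with both calls kept.

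These calls rested on few libraries. Leaving out control replicate 1 gave an adjusted p of 0.0693 for both genes, and leaving out control replicate 3 gave 0.0577 for both (limma, Benjamini-Hochberg). For miR7122a the adjusted p was also 0.0583 without replicate 1 of 24 h and 0.0539 without replicate 3 of 24 h by the same limma test, whereas miR7122b kept its call without either of these. The log2 fold change itself stayed between 1.29 and 1.55 for miR7122a and between 1.51 and 1.76 for miR7122b over the 9 fits that each left out 1 library.

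At 1 h against t0 neither gene passed, although all 3 libraries of both were above the control. The log2 fold change was 1.30 (standard error 0.30) for miR7122b (limma adjusted p = 0.0802) and 0.94 (standard error 0.26) for miR7122a (limma adjusted p = 0.143). Of the genes tested, 0% were called higher at 1 h, 0.741% were called in either direction and 8.89% had all 1 h libraries above all control libraries. An unadjusted p under 0.05 was found for 12.6% of them. By unadjusted p the pair ranked 3rd and 6th among the 135 genes. Leaving out the 1 h library nearest to the control raises the fold change by construction, and the calls changed without that library, replicate 1. Without it the log2 fold change was 1.64 for miR7122b (adjusted p = 0.00326) and 1.24 for miR7122a (adjusted p = 0.00419, both limma with Benjamini-Hochberg), while 18 genes in place of 1 were called. Under the common upper quartile, miR7122b also passed at 1 h with an adjusted p of 0.0369 in limma.

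The difference between the time points passed the test for neither gene. At 24 h against 1 h the log2 fold change was 0.46 for miR7122a (standard error 0.26, adjusted p = 0.456) and 0.35 for miR7122b (standard error 0.30, adjusted p = 0.568, both limma with Benjamini-Hochberg). Neither gene separated the groups, while 11.9% of the genes tested had all 24 h libraries above all 1 h libraries. By limma 0% were called, and 18 genes (13.3%) had an unadjusted p under 0.05. Without replicate 1 of 1 h these differences were 0.16 and 0.01. The comparisons of 1 h and of 24 h with t0 share the control libraries.

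As a share of all normalized counts of a library, miR7122a took 0.738% to 0.966% at t0, 1.15% to 1.68% at 1 h and 1.47% to 2.11% at 24 h. The share of miR7122b was 0.0364% to 0.0417% at t0, 0.0647% to 0.108% at 1 h and 0.0864% to 0.120% at 24 h. These shares do not use the factors of the libraries, and here too every PpPep2 library was above every control library. How many of all genes did so as shares was not counted. With normalized counts, 8.89% of the genes tested had all 1 h libraries above all control libraries, and 20% had all 24 h libraries above them. Among the 210 listed genes miR7122a ranked 20th to 22nd by level at t0, 14th to 17th at 1 h and 11th to 15th at 24 h. The rank of miR7122b was 59th to 63rd at t0, 37th to 48th at 1 h and 36th to 39th at 24 h.

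The abundance ratio of miR7122a to miR7122b was taken within each library, where the factor of the library cancels. It was not divided by length, and both 5p sequences have the same length. The ratio was 21.9, 20.3 and 23.2 in the t0 libraries, 17.8, 17.2 and 15.6 at 1 h and 20.1, 17.1 and 17.5 at 24 h, each for replicates 1, 2 and 3. All PpPep2 libraries were below all control libraries, with replicate 1 of 24 h only just below control replicate 2. Averaged over 3 libraries, with the SD, the ratio was 21.8 ± 1.44 for the control, 16.9 ± 1.15 for 1 h and 18.2 ± 1.66 for 24 h.

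At 1 h the mean log2 ratio was 4.07, against 4.44 at t0, a difference of -0.37. Over the 9 pairs of a 1 h and a t0 library it ran between -0.57 and -0.19. At 24 h the mean log2 ratio was 4.19, against 4.44 at t0, a difference of -0.26 that ran between -0.44 and -0.01 over the library pairs. The two-sided exact permutation test gave p = 0.1 for each, which is the smallest that 3 libraries against 3 allow, and 0.15 after Benjamini-Hochberg adjustment over the 3 ratio comparisons, so neither could pass. Between 24 h and 1 h the difference in log2 ratio was 0.11 (exact permutation p = 0.5) and the groups overlapped.

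Counting error alone made the ratio imprecise in single libraries. In control replicate 2, with 852 reads of miR7122a and 42 of miR7122b, the exact Clopper-Pearson 95% interval of the ratio was 14.9 to 28.4, which takes in every other library. In replicate 3 of 1 h, with 3788 and 243 reads, it was 13.7 to 17.8, and in control replicate 3, with 5279 and 228 reads, it was 20.3 to 26.6. When the reads of a group were summed, the ratio was 22.4 (20.4 to 24.6) at t0, 16.8 (15.6 to 18.2) at 1 h and 18.3 (16.9 to 19.7) at 24 h. The intervals of the summed ratios at 1 h and 24 h lay below that of t0 and overlapped each other. Summed reads give more weight to deeper libraries and leave out the spread between replicates.

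**Figure D2:**
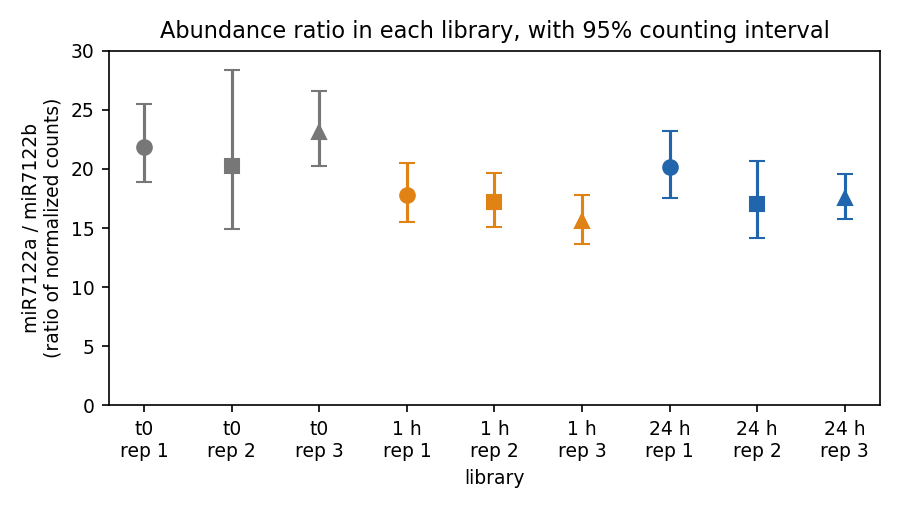
Ratio of miR7122a to miR7122b in each of the 9 libraries, with the exact 95% interval for counting error as bars and colours for t0, 1 h and 24 h. The control libraries sit at 20.3 to 23.2 and the PpPep2 libraries at 15.6 to 20.1, and the interval of control replicate 2 (14.9 to 28.4) spans all of them.

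Library by library, high values of the pair came together after PpPep2. Relative to the geometric mean of the control, miR7122a was 1.26-fold, 2.25-fold and 2.48-fold in replicates 1, 2 and 3 of 1 h and miR7122b was 1.54-fold, 2.85-fold and 3.45-fold in the same libraries. At 24 h miR7122a was 2.78-fold, 2.14-fold and 3.10-fold and miR7122b was 3.00-fold, 2.72-fold and 3.84-fold. The library with the highest miR7122a also had the highest miR7122b within each time point, and the order of the 3 replicates was the same for both genes at 1 h and at 24 h. These orders were also those of miR403 and miR482a, so they are not particular to the pair. How many of all genes tested had them was not counted. In the control the orders of the pair were opposite, with replicate 3 highest for miR7122a and replicate 2 highest for miR7122b, within differences that counting error covers. The excess of miR7122b over miR7122a on the log2 scale was positive in all 6 PpPep2 libraries, from 0.11 in replicate 1 of 24 h to 0.48 in replicate 3 of 1 h. It restates the lower ratio given above, as the distance of each log2 ratio from the control mean, and is not a separate result.

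Over the 6 PpPep2 libraries the log2 normalized counts of the 2 genes had a Pearson r of 0.966 (exact permutation p = 0.0125) and a Spearman rho of 0.943 (exact permutation p = 0.0167). This was the only relation between measures tested across libraries, and no correlation over these 6 libraries was computed for other genes. By its normalized counts miR482a, described below, put the 6 libraries in the same order as miR7122a. Such an order is therefore not particular to the pair. The control libraries lay apart from the others for both genes and were not pooled with them. The 2 libraries farthest from the median of miR7122a were replicate 1 of 1 h and replicate 3 of 24 h. Without them, r was 0.532 (exact permutation p = 0.5) and rho 0.8 (exact permutation p = 0.333) over 4 libraries. Dropping the farthest libraries narrows the range of miR7122a, so this lower r cannot show whether the relation rests on them. Without replicate 1 of 1 h alone, r was 0.806 (exact permutation p = 0.125), and without replicate 3 of 24 h alone it was 0.955 (exact permutation p = 0.0583). Both genes share the factor of a library and the reads that fit both. With each value taken as the deviation from the mean of its time point, and pairings made within time points only, r was 0.972 and rho 0.943 (exact permutation p = 0.0278 for each, the smallest that 36 pairings can give), a test added after the data were seen. Without the same 2 libraries this r was 0.729 (exact permutation p = 0.5, where 0.25 is the smallest possible), and with any 1 PpPep2 library left out the smallest p possible was 0.0833. Under the common total, r was 0.926 (exact permutation p = 0.0153) and rho 0.943 (exact permutation p = 0.0167). Under the common upper quartile, r was 0.971 (exact permutation p = 0.00556) and rho 0.829 (exact permutation p = 0.0583).

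**Figure D3:**
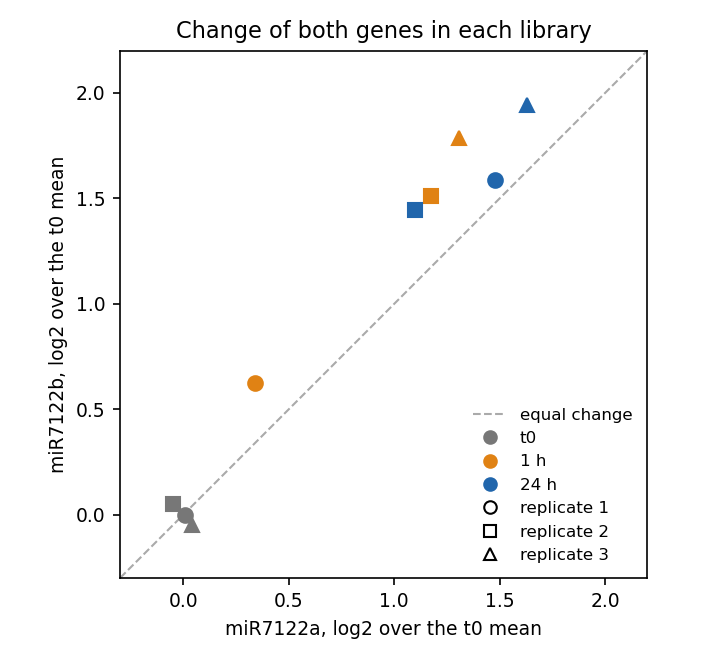
Change of miR7122b (vertical axis) against that of miR7122a (horizontal axis) in each library, as log2 over the mean log2 value of the control, with colours for the time points, symbols for replicates and a dashed line for equal change. All 6 PpPep2 libraries lie above the line, by 0.11 to 0.48, which restates their lower ratio of miR7122a to miR7122b. Replicate 1 of 1 h lies between the control and the other PpPep2 libraries.

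Among the 135 genes tested, the gene whose pattern over the 9 libraries was most like that of miR7122a was miR7122b, and the reverse also held (Pearson r = 0.986 of log2 values over 9 libraries). After it, the genes most like miR7122a were miR403, which targets the silencing protein AGO2 in Arabidopsis (r = 0.956), miR156g (r = 0.940), miR396b, a regulator of growth-regulating factors (r = 0.936), and miR482f (r = 0.933). For miR7122b they were ENSRNA049997141 (r = 0.956), ENSRNA049996257 (r = 0.955), miR396b (r = 0.944) and miR403 (r = 0.929). These correlations are descriptions over libraries that share their factors and fall into 3 groups. Their levels differed widely, with miR156g at 1.48 normalized counts on average in t0 and listed at 0 in control replicate 2 and in replicate 1 of 1 h, and with ENSRNA049997141 at 22569 in t0.

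A further 5 listed genes have a known part in phasiRNA biogenesis, either as triggers of 22 nt or through TAS3 transcripts. The MIR482 genes target transcripts of nucleotide-binding leucine-rich repeat (NLR) resistance proteins and set off phasiRNAs from them in several plants, and miR390 guides the making of tasiRNAs against auxin response factors from TAS3 transcripts. Their sequences are shown for the comparison of seeds with the miR7122 pair.
miR482a-3p: uUUCCGAAaccucccauuccaa
miR482c-3p: uUCCCAAGcccgcccauuccaa
miR482e-3p: uUGCCUAUuccucccaugccaa
miR482f-3p: uCUUUCCUacuccacccauucc
miR390-5p: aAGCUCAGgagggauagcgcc
The capitals again mark bases 2 to 8, and none of these seeds was that of a miR7122 sequence. At 24 h, 1 of the 5 rose (miR482f) and 1 fell (miR390), while 3 did not pass, and 14.1% of all genes tested were called in either direction. The 5 genes were picked, with their results known, from those that the study named after testing these samples, so their count is not independent evidence. Its median log2 fold change at 24 h was 0.64, beside -0.01 for all genes tested, and it ran from -1.44 to 1.02, below the values of both miR7122 genes. The lowest unadjusted limma p of the 5 at 1 h was 0.0558, for miR482c. At 1 h 0 of the 5 passed in limma (2 of them, miR482c and miR482f, did so without replicate 1 of 1 h, with an adjusted p of 0.00938 and 0.0252), with a median of 0.19 beside -0.03 for all genes tested.

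The normalized counts of miR482f were 7596, 5914 and 6159 in the 24 h libraries, against 3215, 3527 and 2904 in the control, which limma put at 1.02 ± 0.23 (standard error) on the log2 scale with an adjusted p of 0.0246. Those of miR390 were 126.3, 175.2 and 156.0 in the 24 h libraries, against 490.7, 355.6 and 403.3 in the control, which limma put at -1.44 ± 0.27 (standard error) on the log2 scale with an adjusted p of 0.0144. In both genes the groups did not overlap, in opposite directions, beside 41.5% of the genes tested without overlap in either direction, 20% higher and 21.5% lower. Leaving out any 1 of the 6 control and 24 h libraries ended the call of miR482f (limma adjusted p of 0.0551 to 0.0759), and that of miR390 ended without control replicate 1 (0.0693), control replicate 3 (0.0577) or replicate 1 of 24 h (0.0583). At 24 h miR482a had a log2 fold change of 0.93 (adjusted p = 0.058), miR482e one of 0.64 (adjusted p = 0.0729) and miR482c one of -1.23 (adjusted p = 0.0638), all by limma. These 3 also passed when replicate 1 of 1 h was left out of the fit, with a limma adjusted p of 0.0248 for miR482a, 0.039 for miR482e and 0.00617 for miR482c, and miR482c passed without replicate 3 of 1 h (0.0441).

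**Figure D4:**
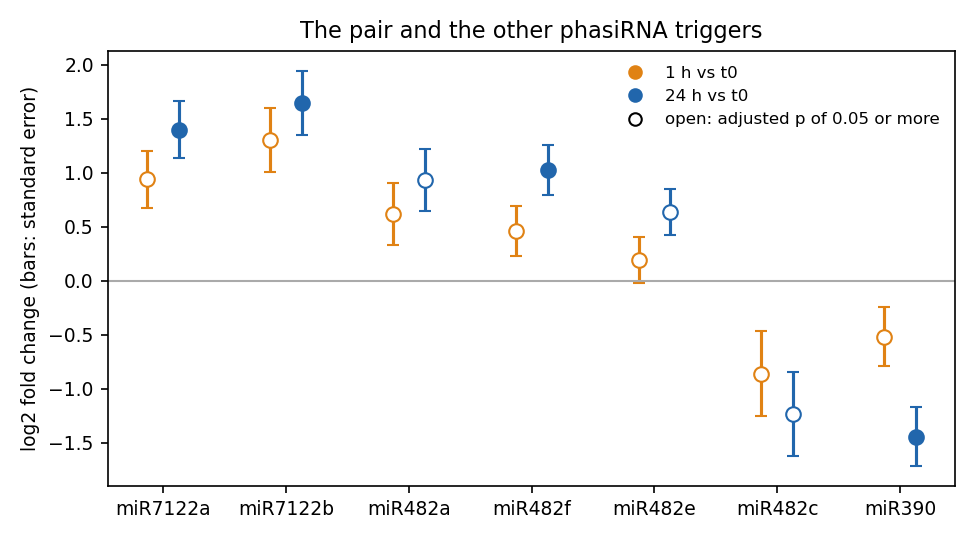
Log2 fold change of miR7122a, miR7122b, the MIR482 genes and miR390 at 1 h (orange) and 24 h (blue) against t0, with limma standard errors as bars and filled symbols for an adjusted p under 0.05. The miR7122 genes have the highest values of the 7 at both times, 0.94 and 1.30 at 1 h and 1.40 and 1.65 at 24 h, and miR390 and miR482c lie below 0.

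Replicate 1 of 1 h stood near the control in these genes too, a comparison made after its values were seen. It was the 1 h library nearest to the mean of the control for both miR7122 genes and for 5 of the 5 other phasiRNA genes, beside 68 of all 135 genes tested (50.4%). For miR482c its value was 4652, against 4869, 3959 and 4390 in the control, while replicates 2 and 3 of 1 h were at 1940 and 1569. It had 338631 reads on pre_miRNA genes, the most of the 6 PpPep2 libraries, and the part of depth in its position was not tested.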

How the data were processed

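Per the study's methods and the labels, the authors used Trim Galore 0.6.6 for trimming, mapped the reads with STAR 2.5.3a to Prunus_persica_NCBIv2.38, quantified them with RSEM 1.3.0 at a seed length of 16 on release 48 of Ensembl Plants and normalized and tested pre_miRNA genes with DESeq2 1.26.0. What was deposited is a signal: read counts divided by a library factor, given to 2 decimals. The way RSEM divided reads between near-identical genes is already in these values. Column names were matched to the sample labels, and 0 value columns were left unmapped. Mature sequences and gene names came from the supplementary sequence table of the study, of which no values were used. 0 of the 210 identifiers matched the RefSeq gene table of Prunus_persica_NCBIv2, so no coordinates are given.

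The main test was limma 3.58.1 (R 4.3.3, trended empirical Bayes) applied to log2(normalized count + 1), for genes with a mean of at least 5, with calls at a Benjamini-Hochberg adjusted p under 0.05. The script was tested on simulated data. Ratios and correlations used exact two-sided permutation tests (Python 3.11.15, scipy 1.17.1). The alternatives were another added value, another minimum mean, another scaling, no trend, a fit to only the 6 libraries compared, a block for the replicate number, summed genes and each library left out. The genes named were the pair, the phasiRNA list and the 5 genes most correlated with each member. The pair, the lists and the tests were chosen with earlier results of these data known. Nothing in the sources used here says that replicates came from separate growth batches, so p-values measure the spread between these libraries. The numbers of the replicates were not treated as pairs.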

Additional observations from a re-analysis of the deposited data

How the results depend on the processing

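Both genes kept their direction against t0 in all 18 alternatives run for each, and the log2 ratio of the pair kept its sign in all 8 run for each comparison. Leaving out each library in turn, the log2 fold change ran from 0.76 to 1.24 for miR7122a and from 1.06 to 1.64 for miR7122b at 1 h, and from 1.29 to 1.55 and 1.51 to 1.76 at 24 h, with the calls lost or gained as given above. The Pearson r over the PpPep2 libraries ran from 0.806 to 0.991 over the same omissions. With the same upper quartile, miR7122b had a log2 fold change of 1.73 at 1 h and passed.

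The number of genes called at 24 h against t0, 19 of 135, was 29 with the same upper quartile, 12 without the trend in limma and 31 with only the 6 libraries compared, and between 0 and 35 with a library left out. At 1 h it was 1, and it was 2 with the same total, 4 with the same upper quartile and 0 to 18 with a library left out. At 24 h against 1 h it was 0, and 0 to 2 with a library left out. The minimum mean was applied anew in each alternative, so the number of genes tested varied.

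With the replicate number as a block, 10 genes were called at 24 h, and the adjusted p was 0.0305 for miR7122a and 0.0302 for miR7122b (limma, Benjamini-Hochberg), so both kept their call. Same-numbered libraries had correlations of -0.41 to 0.17 between their deviations from the group means, and differently numbered ones had -0.37 to 0.39. With 3 libraries a group, these ranges cannot decide whether the numbers pair the libraries. With the pair summed into 1 gene, its log2 fold change at 24 h was 1.41 (adjusted p = 0.018, limma with Benjamini-Hochberg).

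The planned count tests with edgeR and DESeq2 on recovered reads were not run, since each library had fewer low values than the 100 set as needed to enter the inferred reads in a count test. The counting intervals use the same inferred reads. The 42 reads of miR7122b in control replicate 2 limit the precision of the ratio at t0. The cause of the changes between alternatives was not tested.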
